A study of Mus musculus with 6 samples.

Results

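Respiratory complexes II to V and cytochrome c were followed through the transcripts of their nuclear genes in MIN6 cells, a beta cell line from a mouse insulinoma. Genes were taken by symbol: Sdha, Sdhb, Sdhc, Sdhd, Cyc1, Cycs and every symbol beginning with Uqcr, with Cox4 to Cox8 or with Atp5. Among 23284 symbols with counts, 50 matched, and the 46 with a mean of at least 1 CPM (the read count scaled to library size) over the 6 libraries were kept. All 46 also had enough counts to be tested. They comprise 4 genes of complex II, 10 of complex III and cytochrome c, 13 of complex IV, 15 of complex V, and 4 whose symbols match although the protein is not a subunit. The symbols left out were Cox4i2, Cox6b2, Cox8b and Cox8c. Nearest to the limit were Atp5g2 inside it, with a mean of 1.21 CPM, and Cox6b2 outside it, with 0.132 CPM.

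The libraries were 3 from MIN6 cells given an antisense oligonucleotide (ASO) against Paupar, called Paupar KD, and 3 from MIN6 cells given a control ASO, called control KD. Paupar is a long noncoding RNA transcribed beside the transcription factor gene Pax6. All 6 libraries share the same cell line, and no other treatment, time or genotype is given in the labels. Total counts were 16973622 to 23434166 in Paupar KD and 22463557 to 28693863 in control KD. With 0 symbols matching Paupar, the knockdown itself was not analysed here.

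Complex II oxidises succinate and passes its electrons to ubiquinone. Complex III moves them from ubiquinol to cytochrome c, and complex IV moves them on to oxygen. Complexes III and IV pump protons, and complex V, the ATP synthase, uses the returning protons to make ATP. In beta cells the ATP made after glucose uptake closes potassium channels and so sets off insulin release, which makes this machinery part of glucose sensing. Complexes III, IV and V also hold subunits encoded by mitochondrial DNA, which are not analysed here.

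Nuclear genes of respiratory subunits are known for promoters with sites of NRF1, of ETS factors such as GABP, and of YY1. RefSeq promoter sequences (GRCm38.p6, 250 bases before to 50 after the annotated start) were found for 33 of the 42 subunit and cytochrome c genes, and were searched on both strands for GCGCANGCG (NRF1), CCGGAAG (ETS) and AAGATGGCG (YY1), letter for letter. The NRF1 letters were present for 13 of these 33 genes (39.4%), against 15.2% of the tested genes with a promoter entry and 7.03% of all genes with one. The ETS letters were present for 12 genes (36.4%), against 19.8% of the tested and 9.93% of all genes. The YY1 letters were present for 2 genes (6.06%), against 3.48% of the tested and 1.64% of all genes. The ETS letters end with the AAG that begins the YY1 letters, so those matches can overlap. A gene with several annotated starts was counted once if any of its promoters held the letters, and a match is a description of the letters only. Below are a complex II promoter with the ETS letters, a complex III promoter with both ETS and NRF1 letters, that of cytochrome c with the NRF1 letters, and that of Cox6b1, the subunit gene with the lowest log2 fold change. Capitals mark the matches, on either strand.
Sdhb (chr4:140961021-140961320, GRCm38.p6, plus strand): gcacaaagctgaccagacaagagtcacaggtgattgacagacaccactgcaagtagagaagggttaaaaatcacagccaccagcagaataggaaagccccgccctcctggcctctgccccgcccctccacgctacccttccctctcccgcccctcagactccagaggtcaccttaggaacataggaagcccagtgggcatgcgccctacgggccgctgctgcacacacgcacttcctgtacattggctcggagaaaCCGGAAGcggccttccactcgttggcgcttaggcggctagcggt
Uqcr11 (chr10:80406772-80407071, GRCm38.p6, minus strand): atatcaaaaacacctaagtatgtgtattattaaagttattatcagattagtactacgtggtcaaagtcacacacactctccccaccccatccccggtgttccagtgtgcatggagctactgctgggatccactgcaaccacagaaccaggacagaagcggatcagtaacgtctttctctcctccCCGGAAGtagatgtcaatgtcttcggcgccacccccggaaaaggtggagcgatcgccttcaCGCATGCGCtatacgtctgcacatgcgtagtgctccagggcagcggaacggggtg
Cycs (chr6:50566520-50566819, GRCm38.p6, minus strand): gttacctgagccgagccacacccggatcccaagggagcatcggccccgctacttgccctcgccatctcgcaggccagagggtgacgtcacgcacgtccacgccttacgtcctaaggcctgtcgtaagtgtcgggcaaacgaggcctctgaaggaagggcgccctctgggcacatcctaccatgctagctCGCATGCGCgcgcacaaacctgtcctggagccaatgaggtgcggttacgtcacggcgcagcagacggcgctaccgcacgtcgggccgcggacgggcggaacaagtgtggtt
Cox6b1 (chr7:30626065-30626364, GRCm38.p6, minus strand): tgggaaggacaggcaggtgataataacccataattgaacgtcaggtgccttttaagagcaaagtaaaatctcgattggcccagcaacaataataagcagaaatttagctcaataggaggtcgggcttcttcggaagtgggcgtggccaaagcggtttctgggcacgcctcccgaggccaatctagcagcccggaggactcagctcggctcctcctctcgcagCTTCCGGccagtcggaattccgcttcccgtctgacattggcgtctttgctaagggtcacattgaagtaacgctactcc

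Most subunit transcripts had slightly higher means after Paupar KD, unevenly among libraries, and no single gene passed the test. Over all genes, edgeR called 0.0383% of 13039 tested genes higher and 0.00767% lower at an adjusted p under 0.05. Of the 46 genes, 0 were called higher and 0 lower. At an unadjusted p under 0.05, 6 were higher (13.0%) and 1 was lower (2.17%), against 9.63% and 8.11% of all tested genes. DESeq2 called 2.11% of tested genes higher and 1.79% lower, and among the 46 it called 2 higher, Cox6a2 and Uqcrq, and 0 lower. The log2 fold change (Paupar KD over control KD) was positive for 39 of the 46 genes (84.8%), against 51.0% of all tested genes, with a median of 0.17 against 0.01. Among the 42 subunit and cytochrome c genes it was positive for 38. The groups did not overlap for 11 of the 46 that were higher (23.9%), against 13.7% of all tested genes, and for 1 that was lower (2.17%), against 13.3%. Whether replicates came from separate cultures is not in the labels, and a p-value here reflects only how far these libraries differ, which may be a technical spread. In whole-culture RNA, a change in the share of cells of a type and a change in RNA per cell cannot be told apart.

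**Figure D1:**
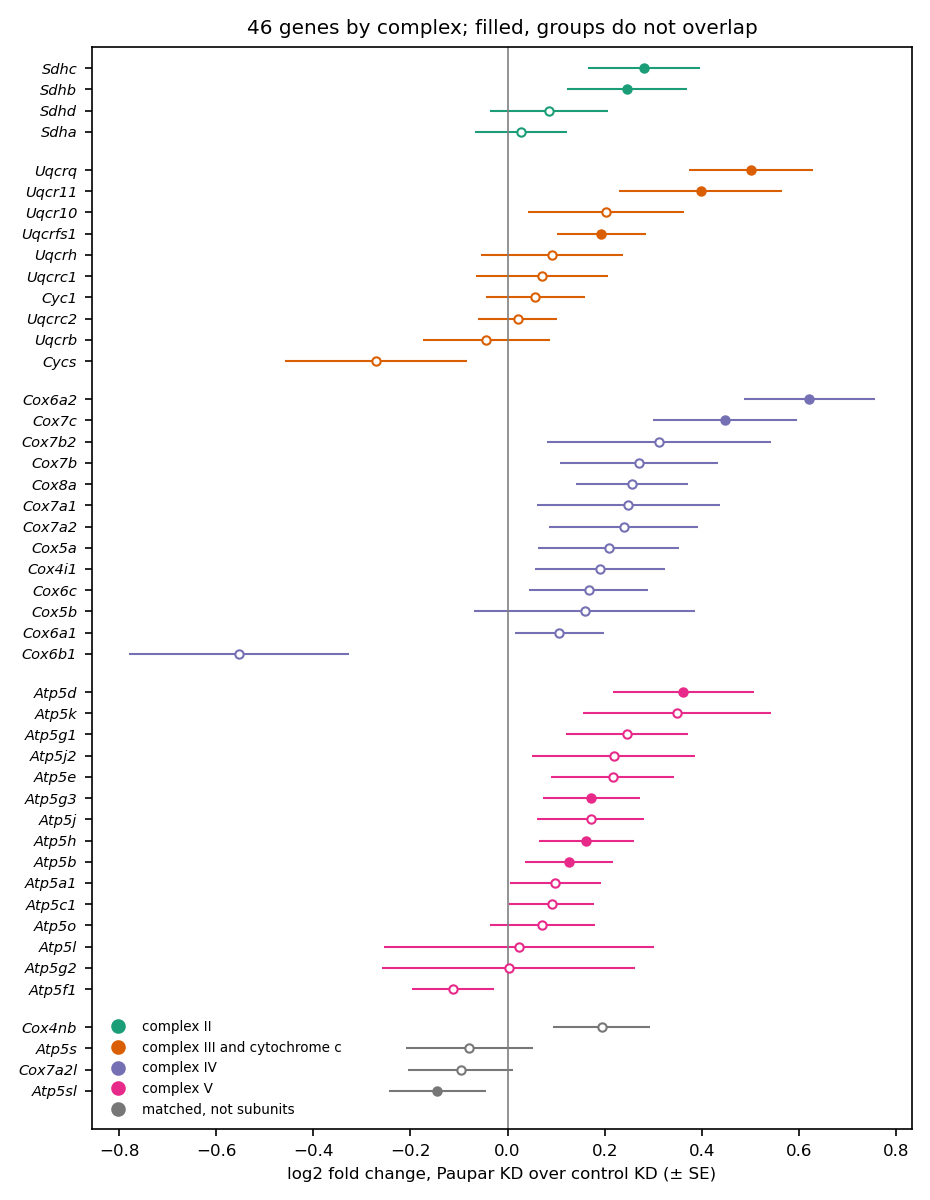
Log2 fold change of each of the 46 genes, Paupar KD over control KD, with its standard error, grouped by complex; filled points mark genes whose 3 Paupar KD values lie apart from the 3 control KD values. Most points lie right of 0, up to 0.62 for Cox6a2, while Cox6b1 lies farthest left at -0.55.

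Paupar KD replicate 1 held most of the difference. Over the 42 subunit and cytochrome c genes, the median distance to the mean of the controls on the log2 scale was 0.37, 0.08 and 0.02 in Paupar KD replicates 1, 2 and 3, and 0.03, 0.04 and -0.08 in control KD replicates 1, 2 and 3. In replicate 1, 40 of the 42 genes lay above the control mean, against 28 in replicate 2 and 23 in replicate 3. The same count was 29, 32 and 4 in control KD replicates 1, 2 and 3. By the count, Paupar KD replicates 2 and 3 lay within the range of single controls. By the median, replicate 3 lay within it and replicate 2 slightly above it. In replicate 2, 21 of the 42 genes (50%) lay above all controls and 5 (11.9%) below all, against 36.6% and 37.1% of all tested genes. In replicate 3 these were 14 (33.3%) and 9 (21.4%), against 37.3% and 34.8%. Paupar KD replicate 1 also stands apart across the whole transcriptome: its correlation of log2 CPM with the other 5 libraries averaged 0.979, against 0.988 to 0.991 for each other library. It held the highest of the 6 values for 36 of the 46 genes (78.3%), against 33.2% of all tested genes. Without this library, 29 of the 46 log2 fold changes were positive (63.0%) with a median of 0.04, and edgeR called 0 of the 46, against 0.934% of tested genes higher and 0.972% lower. Without it, 8 genes (17.4%) had all Paupar KD values above the controls and 4 (8.70%) had all below, against 18.7% and 20.4% of tested genes. Without Paupar KD replicate 3, edgeR called 2 genes higher, Cox6a2 and Uqcrq, and 1 lower, Cox6b1, against 4.65% and 5.67% of tested genes. The groups then did not overlap for 22 higher genes (47.8%) and 3 lower ones (6.52%), against 24.5% and 25.3%. Without Paupar KD replicate 2 or any single control library, 0 of the 46 were called.

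**Figure D2:**
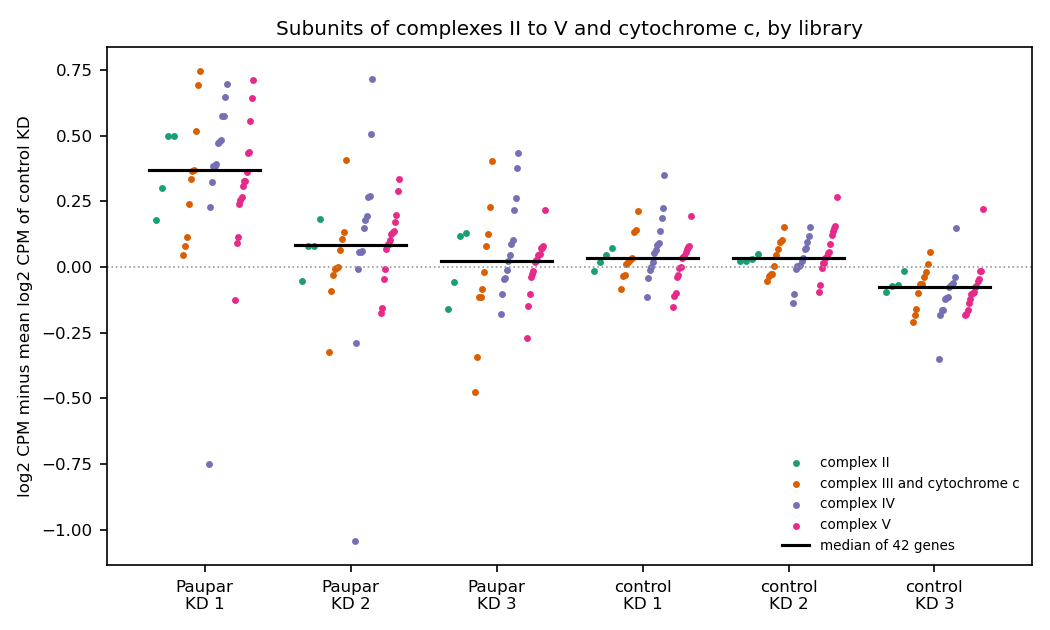
Difference of each of the 42 subunit and cytochrome c genes from its mean log2 CPM in control KD, for the 6 libraries, with points coloured by complex and a black line at the median. The median is 0.37 in Paupar KD replicate 1 and between -0.08 and 0.08 in the other 5 libraries, and the lone low points of Paupar KD replicates 1 and 2 are Cox6b1.

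Together the 42 genes took 0.906%, 0.770% and 0.753% of all counts in Paupar KD replicates 1, 2 and 3, and 0.759%, 0.750% and 0.705% in control KD replicates 1, 2 and 3. Paupar KD replicate 1 lay above all others, replicate 2 just above the highest control, and replicate 3 between the controls. The coefficient of variation among replicates had a median of 12.6% in Paupar KD and 7.34% in control KD over the 46 genes, and was larger in Paupar KD for 38 of them. Complex V took the largest part, with 0.520%, 0.454% and 0.441% of counts in Paupar KD and 0.439%, 0.442% and 0.416% in control KD. Complex II took 0.0697% to 0.0879% in Paupar KD and 0.0682% to 0.0717% in control KD.

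Complex II, which is also the succinate dehydrogenase of the citric acid cycle, has 4 nuclear subunits, and their log2 fold changes were all positive, with a median of 0.17. Sdhc encodes a membrane anchor that holds the haem and the ubiquinone site (mm9 chromosome 1, 173057296 to 173080734). It was at 177, 142 and 137 CPM in Paupar KD and 132, 127 and 117 CPM in control KD. All Paupar KD libraries lay above the controls, with replicate 1 well above the others, and the difference did not pass (log2 fold change 0.28 ± 0.12 SE, edgeR adjusted p = 0.266). Sdhb, the iron-sulfur subunit, was at 163, 122 and 125 CPM in Paupar KD and 119, 117 and 109.7 CPM in control KD. Replicate 1 lay well above the controls and replicates 2 and 3 just above them (edgeR adjusted p = 0.330). The other membrane anchor, Sdhd, was at 149, 128 and 108 CPM in Paupar KD and 122, 125 and 115 CPM in control KD, and the groups overlapped. Sdha, the flavoprotein that oxidises succinate, was at 390.3, 332 and 331 CPM in Paupar KD and 341, 352 and 341 CPM in control KD. Its replicates 2 and 3 lay below every control, and its log2 fold change was -0.06 without Paupar KD replicate 1, against 0.03 with it. That of Sdhd was -0.04 without that library and 0.09 with it.

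In complex III the highest log2 fold changes belonged to small supernumerary subunits, which surround the catalytic core. Uqcrq (mm9 chromosome 11, 53241424 to 53244333) was at 216, 177 and 177 CPM in Paupar KD and 155, 128 and 119 CPM in control KD. All 3 Paupar KD libraries lay above the controls, and replicates 2 and 3 nearly coincided. It averaged 190.0 ± 22.7 CPM in Paupar KD and 134 ± 18.5 CPM in control KD (SD, n = 3 each; log2 fold change 0.50 ± 0.13 SE; edgeR adjusted p = 0.150; DESeq2 adjusted p = 0.0263). Over all alternatives its adjusted p ranged between 0.0263 and 0.566, and it passed edgeR only without Paupar KD replicate 3 (adjusted p = 0.0433). Uqcr11, another small subunit, was at 43.6, 28.3 and 30.3 CPM in Paupar KD and 28.3, 25.2 and 24.0 CPM in control KD. Its replicate 2 was barely above the highest control (log2 fold change 0.40 ± 0.17 SE, edgeR adjusted p = 0.274).

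Uqcrfs1, the Rieske iron-sulfur protein, was at 253, 216 and 219 CPM in Paupar KD and 206, 201 and 195 CPM in control KD, with no overlap (edgeR adjusted p = 0.310). Cyc1, cytochrome c1, averaged 150.3 ± 18.0 CPM in Paupar KD and 144 ± 2.27 CPM in control KD (SD, n = 3 each). The core proteins Uqcrc1 and Uqcrc2 had log2 fold changes of 0.07 and 0.02. The rest lay between -0.04 for Uqcrb and 0.20 for Uqcr10, with Uqcrh, the hinge protein between cytochromes c1 and c, at 0.09.

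Cycs encodes cytochrome c, the mobile carrier between complexes III and IV that also starts caspase activation when released from mitochondria. It was listed at 5.13, 3.86 and 3.43 CPM in Paupar KD and 4.65, 5.37 and 4.89 CPM in control KD. Replicates 2 and 3 of Paupar KD lay below the controls and replicate 1 within them (log2 fold change -0.27 ± 0.19 SE, edgeR adjusted p = 0.463). Its level per kilobase was the lowest of complex III, and 5 near-identical copies of its coding sequence lie elsewhere in the genome, as described further on.

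Complex IV had the highest median log2 fold change, 0.24, and also the widest range. Cox6a2 (mm9 chromosome 7, 135348950 to 135349880) encodes the isoform of subunit 6a known from heart and skeletal muscle. It was at 15.3, 16.1 and 13.1 CPM in Paupar KD and 9.52, 8.69 and 10.7 CPM in control KD. Every Paupar KD library lay above every control, and replicate 1 did not stand out. It averaged 14.9 ± 1.54 CPM in Paupar KD and 9.63 ± 1.002 CPM in control KD (SD, n = 3 each), a log2 fold change of 0.62 ± 0.13 SE. It did not pass with edgeR (adjusted p = 0.128) and passed with DESeq2 (adjusted p = 0.00909) and with edgeR without Paupar KD replicate 3 (adjusted p = 0.0198). The range of adjusted p over all alternatives was 0.00909 to 0.560, and the log2 fold change stayed between 0.54 and 0.70. Markers of skeletal muscle fibres were low, with Myh1 and Myh4 at 0 in all Paupar KD libraries. Ckm, the muscle creatine kinase gene, was at 1.89, 1.08 and 0.987 CPM in Paupar KD and 0.576, 0.980 and 0.803 CPM in control KD. Acta1, for muscle actin, was at 1.36, 1.66 and 1.29 CPM in Paupar KD and 2.21, 0.852 and 1.01 CPM in control KD, with overlapping groups. The summed level of the 4 markers was 2.27 to 3.24 CPM in Paupar KD and 1.82 to 2.88 CPM in control KD. Their part in the Cox6a2 result was not tested. The annotation places 66 exon bases of Cox6a2 opposite the integrin gene Itgad, which was at 1.16 to 1.95 CPM in Paupar KD and 0.724 to 1.22 CPM in control KD. With the strand setting not given, reads in the shared part cannot be told apart.

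Cox6b1 (mm9 chromosome 7, 31401993 to 31411170), a subunit that faces the intermembrane space and joins the monomers of the complex IV dimer, had the lowest log2 fold change of all 46. It was at 67.6, 55.1 and 111 CPM in Paupar KD and 114, 119.7 and 109 CPM in control KD. Paupar KD replicates 1 and 2 lay far below every control, while replicate 3 lay within the control range. It averaged 77.7 ± 29.1 CPM in Paupar KD and 114 ± 5.44 CPM in control KD (SD, n = 3 each; log2 fold change -0.55 ± 0.23 SE; edgeR adjusted p = 0.265). Leaving out Paupar KD replicate 3 gave a log2 fold change of -0.90 (edgeR adjusted p = 0.00622), and leaving out replicate 2 gave -0.36 (edgeR adjusted p = 0.413). The range of edgeR and DESeq2 adjusted p over all alternatives was 0.00622 to 0.599. In Paupar KD replicate 1 it was 0.75 below its control mean on the log2 scale, and of the other 41 genes Atp5f1 alone was below, at a difference of -0.12. No near-identical copy of its coding sequence was found.

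Of the other complex IV genes, Cox7c, a small membrane subunit, was at 8.67, 9.44 and 8.58 CPM in Paupar KD and 7.66, 6.005 and 5.93 CPM in control KD. All Paupar KD libraries lay above the controls (edgeR adjusted p = 0.214 at a log2 fold change of 0.45 ± 0.15 SE), and 3 near-identical copies of its coding sequence exist elsewhere. Cox8a, also a small membrane subunit, was at 346, 300.0 and 307 CPM in Paupar KD and 301, 263 and 233 CPM in control KD. Control KD replicate 1 reached the Paupar KD range (edgeR adjusted p = 0.290). Cox4i1, the regulatory subunit that binds ATP, was at 252, 188 and 179 CPM in Paupar KD and 189, 181 and 172 CPM in control KD, with only replicate 1 above the controls. The remaining genes encode other small subunits around the mitochondrially encoded core: Cox5a, Cox5b, Cox6a1, Cox6c, Cox7a1, Cox7a2, Cox7b and Cox7b2. They had log2 fold changes of 0.11 to 0.31, overlapping groups and edgeR adjusted p of 0.402 to 0.741.

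**Figure D3:**
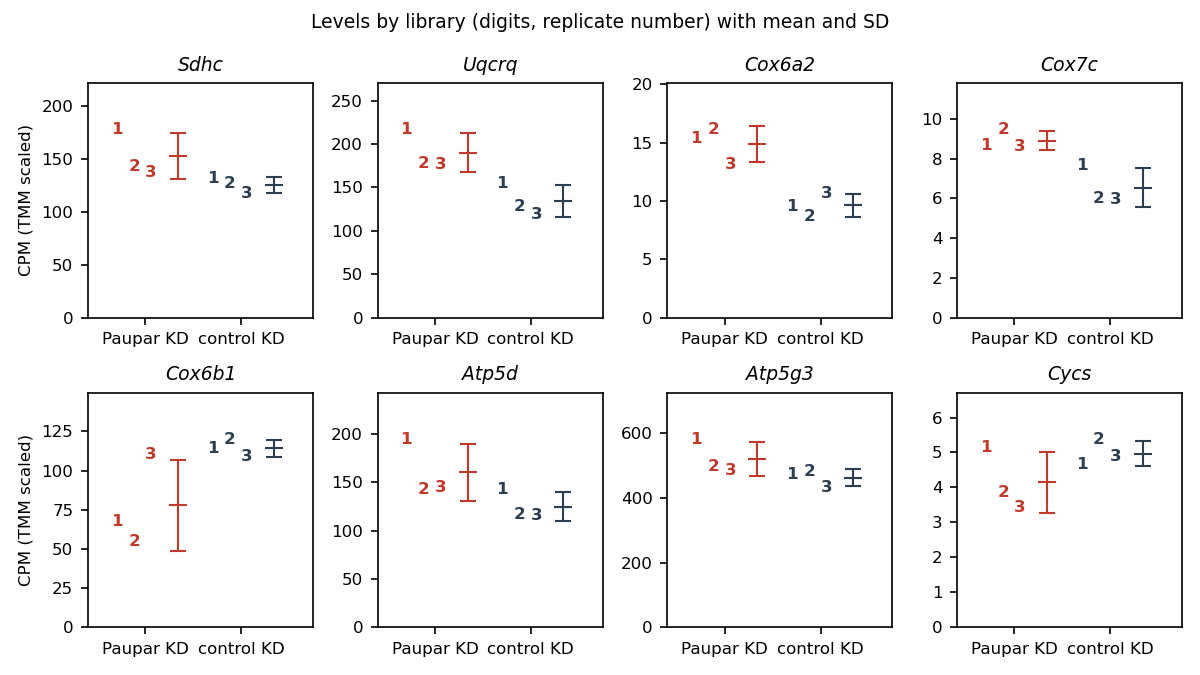
TMM-scaled CPM of 8 genes in each library, Paupar KD left of control KD, with digits for the replicate number and a bar for the mean and SD of 3 libraries. Uqcrq, Cox6a2 and Cox7c have every Paupar KD value above every control value, whereas Cox6b1 is at 67.6 and 55.1 CPM in Paupar KD replicates 1 and 2 and at 111 CPM in replicate 3.

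Several complex IV subunits and the c ring of complex V have alternative isoforms encoded by separate genes. Levels between genes were compared as CPM per kilobase of the longest annotated transcript (GENCODE M1, mm9). Cox6a2 made up 4.65%, 5.69% and 4.40% of Cox6a1 plus Cox6a2 in Paupar KD, and 3.31%, 3.12% and 3.99% in control KD. The share was higher in every Paupar KD library, at the smallest p that 3 against 3 libraries allow (exact 2-sided permutation test, p = 0.10, adjusted p = 0.80 over the 8 isoform shares tested). For every other share the adjusted p was also at least 0.80. Cox6a1 itself was at 296, 251 and 269 CPM in Paupar KD and 262, 254 and 242 CPM in control KD, and its groups overlapped. Cox7a1, the heart and muscle form of subunit 7a, was at 2.83, 2.54 and 2.36 CPM in Paupar KD and 2.08, 2.38 and 2.02 CPM in control KD. Cox7a2, the form of most tissues, was at 157, 109.5 and 107 CPM in Paupar KD and 112, 108 and 97.1 CPM in control KD, with only replicate 1 standing clear. Cox7a1 made up 4.18 ± 0.52% of Cox7a1 plus Cox7a2 in Paupar KD and 4.08 ± 0.33% in control KD (exact 2-sided permutation test, p = 0.80). Cox7b2, known from testis and added to the isoform pairs after its level was seen, made up 14.1 ± 1.07% of Cox7b plus Cox7b2 in Paupar KD and 13.9 ± 1.02% in control KD (exact 2-sided permutation test, p = 0.90; SD, n = 3 each). Cox7b has 2 near-identical copies of its coding sequence elsewhere in the genome and Cox7b2 has 0. The level of Cox7b, and so this share, is uncertain.

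Other alternative isoforms were at or near 0 counts. Cox4i2, the isoform of subunit 4 known from lung, had 0 counts in Paupar KD and 1 count in control KD. Cox8b, the muscle form of subunit 8, and Cox8c, its testis form, had 0 counts in all 6 libraries. A count of 0 allows up to 0.0494 CPM over the Paupar KD group and 0.0402 CPM over the control KD group, with counting error alone. Cox6b2, the testis form of subunit 6b, had 9 counts in Paupar KD and 8 in control KD, at most 0.319% of Cox6b1 plus Cox6b2 in every library.

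Complex V joins the catalytic F1 head to a rotating c ring in the membrane and is braced by a peripheral stalk. Atp5b, the catalytic beta subunit, was at 1405, 1251 and 1197 CPM in Paupar KD and 1174, 1189.9 and 1165 CPM in control KD, with no overlap but replicate 3 barely above the highest control (log2 fold change 0.13 ± 0.09 SE, edgeR adjusted p = 0.480). Atp5a1, the alpha subunit that alternates with it in the head, averaged 1285 ± 119 CPM in Paupar KD and 1201 ± 13.0 CPM in control KD (SD, n = 3 each). The smallest p of the complex was that of Atp5d, the delta subunit of the central stalk (mm9 chromosome 10, 79601377 to 79608563). It was at 194, 142 and 145 CPM in Paupar KD and 142, 116 and 116 CPM in control KD. Replicate 1 lay well above the rest, and replicate 2 was barely above control KD replicate 1. The log2 fold change was 0.36 ± 0.15 SE, with an edgeR adjusted p of 0.262. Its annotated exons share 68 bases with those of Dos on the other strand, which was at 28.8 to 32.0 CPM in Paupar KD and 19.97 to 24.4 CPM in control KD. The other central stalk genes, Atp5c1 for the gamma and Atp5e for the epsilon subunit, had log2 fold changes of 0.09 and 0.22 with overlapping groups.

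The membrane subunits e, f and g help the synthase form dimers. Atp5k, subunit e, was at 90.2, 67.1 and 54.3 CPM in Paupar KD and 51.1, 65.9 and 48.8 CPM in control KD, with overlapping groups (edgeR adjusted p = 0.368). Atp5j2, subunit f, averaged 101 ± 24.8 CPM in Paupar KD and 86.8 ± 6.99 CPM in control KD (SD, n = 3 each). Genes of the peripheral stalk had log2 fold changes of both signs: Atp5h, Atp5j and Atp5o were at 0.16, 0.17 and 0.07, and Atp5f1 was at -0.11, with 260.1, 251 and 276 CPM in Paupar KD and 290.1, 292 and 269 CPM in control KD. Atp5j shares 397 exon bases with Gabpa, on the opposite strand, which encodes the DNA-binding subunit of the ETS factor GABP. Gabpa was at 82.2, 114 and 119.8 CPM in Paupar KD and 104, 105 and 94.8 CPM in control KD. Atp5j was at 285, 249 and 235 CPM in Paupar KD and 223, 252 and 209 CPM in control KD, highest in the library where Gabpa was lowest. Exons of Uqcrb, Uqcrc2, Cox6c, Atp5f1 and Atp5o also share bases with another annotated gene.

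The c ring is built from identical mature proteins made by Atp5g1, Atp5g2 and Atp5g3. Atp5g3 (mm9 chromosome 2, 73746504 to 73749383) was at 579, 495 and 485 CPM in Paupar KD and 473, 479 and 432 CPM in control KD, without overlap (edgeR adjusted p = 0.387). Atp5g1 was at 37.1, 36.3 and 29.1 CPM in Paupar KD and 26.6, 32.0 and 27.8 CPM in control KD (edgeR adjusted p = 0.335). Atp5g2 was listed at 1.30, 1.27 and 1.07 CPM in Paupar KD and 1.02, 1.11 and 1.47 CPM in control KD (edgeR adjusted p = 0.998). Per kilobase of the longest transcript, Atp5g3 made up 98.5 ± 0.15% of the sum in Paupar KD and 98.5 ± 0.16% in control KD (exact 2-sided permutation test, p = 0.90; SD, n = 3 each). Atp5g1 made up 1.19 ± 0.12% in Paupar KD and 1.13 ± 0.10% in control KD (exact 2-sided permutation test, p = 0.60). The longest Atp5g1 transcript has 4715 bases and its median coding transcript 691. With the median coding lengths, an alternative chosen after the data were seen, Atp5g1 made up 6.35 ± 0.61% in Paupar KD and 6.05 ± 0.51% in control KD. Atp5g1 and Atp5g2 have 1 and 3 near-identical copies of their coding sequence elsewhere in the genome, and Atp5g3 has 0. Their levels, and so all shares of the c ring genes, are uncertain, as described further on.

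Subunits of the same complex differed far more in level per length than between conditions. By the longest transcript, Sdha was the highest gene of complex II, at 121 CPM per kilobase in Paupar KD and 119 in control KD. Uqcrfs1 was the highest of complex III, at 168 in Paupar KD and 147 in control KD. Cox8a was the highest of complex IV, at 583 in Paupar KD and 488 in control KD, and Atp5b of complex V, at 670.2 in Paupar KD and 614 in control KD. The lowest genes were Sdhc, at 48.1 CPM per kilobase in Paupar KD and 39.6 in control KD, Cycs, at 1.33 in Paupar KD and 1.59 in control KD, Cox7a1, at 7.08 in Paupar KD and 5.94 in control KD, and Atp5g2, at 1.88 in Paupar KD and 1.85 in control KD. By the median coding transcript the lowest genes of complexes III, IV and V were the same, whereas Sdhc became the highest gene of complex II, at 187 CPM per kilobase in Paupar KD and 154 in control KD. By that length Uqcrq was the highest of complex III, at 377 in Paupar KD and 266 in control KD, and Atp5g3 of complex V, at 728 in Paupar KD and 646 in control KD.

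The 3 lowest levels per length belonged to genes with copies in the genome. Coding sequences were searched in the mm9 genome with BLAST, and a copy was a match of at least 95% identity over at least 80% of the coding sequence outside the gene. Of the 42 subunit and cytochrome c genes, 14 had 1 or more copies, up to 8 for Atp5l, 5 for Cycs, 4 for Atp5h and 3 each for Cox7c, Atp5g2 and Uqcrb. The median level over 6 libraries was 77.7 CPM per kilobase of median coding transcript for these 14 genes and 175 for the 28 without a copy. Atp5l, Cycs and Atp5g2 stood at the bottom. Atp5l, subunit g of the synthase, was listed at 2.83, 1.71 and 1.54 CPM in Paupar KD and 2.04, 2.21 and 1.68 CPM in control KD. How the counting treated reads that match several places is not given in the sources used here, so the levels of these 14 genes are uncertain. The isoform shares of Cox7b2 and of the c ring genes rest on such levels. Of the 46 genes, the 14 with a copy had a median log2 fold change of 0.16, with 11 positive, and the 32 without a copy had 0.18, with 28 positive.

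**Figure D4:**
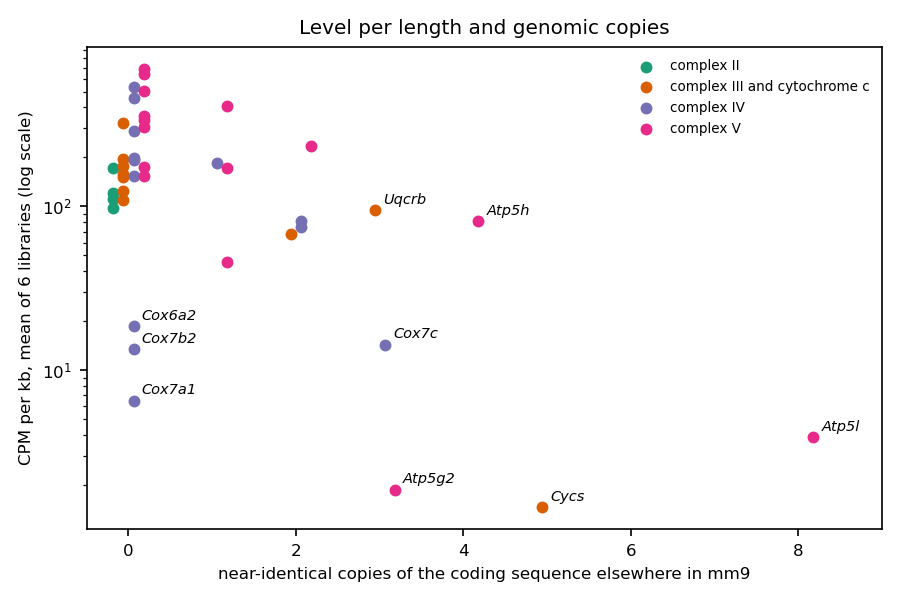
Mean level of the 42 subunit and cytochrome c genes over the 6 libraries, in CPM per kilobase of median coding transcript on a log scale, against the number of near-identical copies of the coding sequence elsewhere in mm9. Atp5l, Cycs and Atp5g2, with 8, 5 and 3 copies, lie lowest, while Cox6a2, Cox7a1 and Cox7b2 are low without a copy.

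The 4 matched genes that are not subunits had log2 fold changes of -0.14 to 0.19, with 1 positive. Cox7a2l, which links complexes III and IV into supercomplexes, was at 99.7, 116 and 122 CPM in Paupar KD and 129.8, 122 and 109.5 CPM in control KD, with replicate 1 lowest of all 6 libraries. Atp5sl, now named Dmac2 and known from complex I assembly, was at 15.7, 15.5 and 14.6 CPM in Paupar KD and 17.2, 17.0 and 16.4 CPM in control KD. It was the only one of the 46 whose Paupar KD values all lay below its controls (edgeR adjusted p = 0.460). Atp5s, known as coupling factor B, was at 9.61, 9.39 and 8.84 CPM in Paupar KD and 9.04, 11.1 and 9.29 CPM in control KD, with overlapping groups. Cox4nb, a subunit of the endoplasmic reticulum membrane complex under its newer name Emc8, was at 77.7, 69.4 and 62.5 CPM in Paupar KD and 62.8, 59.9 and 60.5 CPM in control KD.

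Other mitochondrial gene lists were set beside the 42 genes as counts and medians, without a test between lists. Of 36 tested complex I subunits, 33 had positive log2 fold changes (median 0.24). Without overlap, 16 (44.4%) lay above and 0 below their controls, against 13.7% and 13.3% of all tested genes. Ndufs1, an iron-sulfur subunit of complex I, was at 227, 223 and 221 CPM in Paupar KD and 169, 179.8 and 176 CPM in control KD, nearly level among the Paupar KD libraries (edgeR adjusted p = 0.128). Ndufb6, an accessory subunit, was at 58.3, 58.2 and 51.0 CPM in Paupar KD and 47.1, 43.9 and 37.98 CPM in control KD, without overlap (edgeR adjusted p = 0.174). Of 75 mitochondrial ribosomal protein genes, 58 were positive (median 0.14), with 22 (29.3%) above and 3 (4%) below their controls without overlap. Mrps12, of the small subunit, was at 36.9, 32.5 and 31.6 CPM in Paupar KD and 23.4, 20.1 and 20.9 CPM in control KD, also without overlap (edgeR adjusted p = 0.0728). Mrpl17, of the large subunit, was at 77.3, 75.4 and 66.7 CPM in Paupar KD and 58.3, 51.1 and 51.4 CPM in control KD (edgeR adjusted p = 0.133). The 19 citric acid cycle and pyruvate entry enzymes gave 7 positive values (median -0.02), with 3 (15.8%) above and 2 (10.5%) below their controls without overlap. Mdh2, the mitochondrial malate dehydrogenase, was at 502, 398 and 371 CPM in Paupar KD and 305, 317 and 311 CPM in control KD, highest in replicate 1 (edgeR adjusted p = 0.161). Suclg1, of succinyl-CoA ligase, was at 98.4, 88.8 and 92.0 CPM in Paupar KD and 79.8, 83.3 and 75.1 CPM in control KD (edgeR adjusted p = 0.246). In each of these lists 0 genes were called.

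Of 29 tested factors that assemble complexes II to V, 17 had a log2 fold change above 0, the list's median was 0.04 and 0 were called. Without overlap, 5 (17.2%) lay above and 4 (13.8%) below their controls, near the 13.7% and 13.3% of all tested genes. Cox17, the copper chaperone of complex IV, was at 83.3, 70.4 and 59.4 CPM in Paupar KD and 56.6, 51.5 and 41.2 CPM in control KD, without overlap (edgeR adjusted p = 0.187). Cox16, a complex IV assembly factor, was at 31.0, 32.2 and 30.7 CPM in Paupar KD and 26.8, 25.2 and 22.3 CPM in control KD, also without overlap (edgeR adjusted p = 0.177).

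Among 25 regulators of nuclear mitochondrial genes, 10 log2 fold changes were positive, the median was -0.12 and 0 were called. Without overlap, 0 lay above and 6 (24.0%) below their controls, against 13.7% and 13.3% of all tested genes. Nrf1, which encodes the factor whose letters were searched above, was at 45.7, 43.0 and 41.9 CPM in Paupar KD and 42.9, 44.3 and 41.3 CPM in control KD. Esrrg, the gene of the estrogen-related receptor gamma, was at 27.5, 39.3 and 62.9 CPM in Paupar KD and 70.9, 74.1 and 75.2 CPM in control KD, lowest in Paupar KD replicate 1, where most subunits were highest (edgeR adjusted p = 0.217). Ppard, a fatty acid receptor gene, was at 37.1, 40.1 and 55.1 CPM in Paupar KD and 57.0, 62.3 and 61.6 CPM in control KD (edgeR adjusted p = 0.214). Subunit genes with the NRF1 letters in their promoter had a median log2 fold change of 0.09 (12 of 13 positive), and those without had 0.22 (18 of 20 positive). With the ETS letters the median was 0.17 (11 of 12 positive), and without them 0.19 (19 of 21 positive).

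Transcript length moved with the result. The median coding transcript was at most 1000 bases for 30 of the 46 genes (65.2%), against 20.3% of tested genes with a length. All 2517 tested genes of that kind had a median log2 fold change of 0.08 with 63.8% positive, and the 9865 longer ones had -0.01 with 47.7% positive. In Paupar KD replicates 1, 2 and 3 the short genes stood at median differences of 0.14, 0.06 and 0.03. Among the subunits, the 30 short genes had a median log2 fold change of 0.21 and the 12 longer ones 0.08. The short subunits stood at 0.41, 0.13 and 0.05 in Paupar KD replicates 1, 2 and 3. The longer subunits stood at 0.25, -0.002 and -0.05, so only replicate 1 lay above 0 for them. The part of transcript length in the result was not tested.

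**Figure D5:**
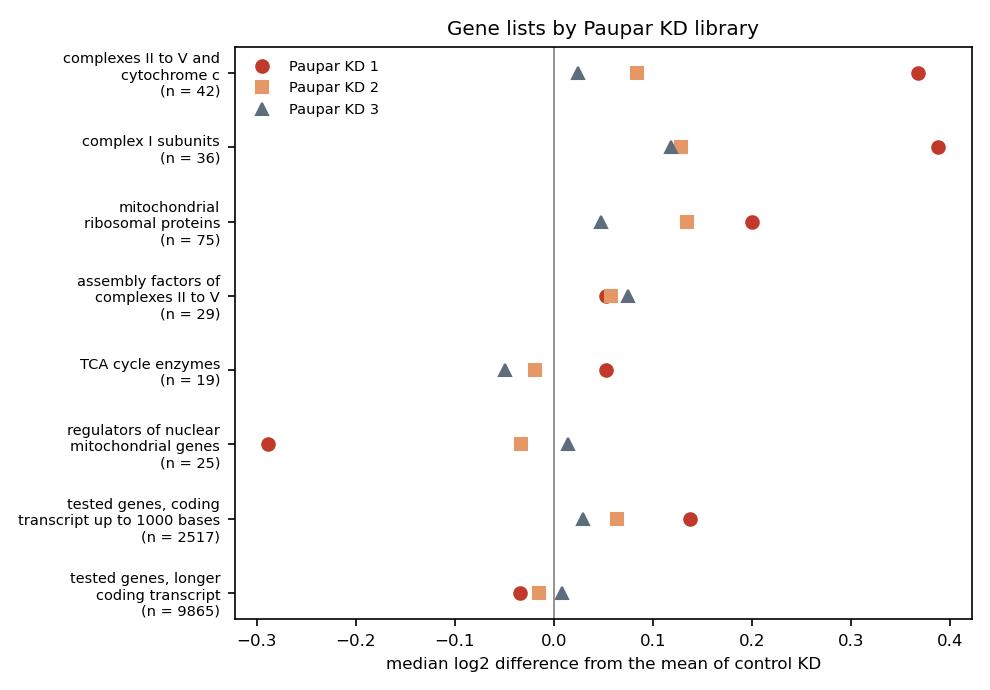
Median log2 difference from the control mean in each Paupar KD library, for the 42 genes, 5 other mitochondrial lists and all tested genes split by the length of the median coding transcript. Paupar KD replicate 1 stands farthest right for complexes II to V (0.37) and complex I (0.39), and farthest left for the regulators (-0.29).

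Beta cell markers were high in all libraries and took 4.80% to 6.98% of counts in Paupar KD and 4.30% to 4.69% in control KD, highest in Paupar KD replicate 1. Of 11 beta cell markers 10 (90.9%) had positive log2 fold changes, against 51.0% of all tested genes, and 0 were called. Their median differences were 0.34, 0.05 and 0.07 in Paupar KD replicates 1, 2 and 3. The exception was Slc2a2, at 315, 237 and 236 CPM in Paupar KD and 310, 322 and 318 CPM in control KD. Ins1 was at 14318, 6461 and 5239 CPM in Paupar KD and 6298, 6732 and 5990 CPM in control KD. The part of these markers in the result was not tested. Of the 15 exocrine, duct, mesenchymal, endothelial and immune markers in the count tables, 3 were tested and 0 passed. Their summed level was 0.685 to 1.003 CPM in Paupar KD and 1.19 to 1.66 CPM in control KD for exocrine and duct cells, and 2.49 to 3.35 CPM in Paupar KD and 3.66 to 4.05 CPM in control KD for the others. Cpa1, Prss1, Amy2a5, Sox9, Col3a1, Vim and Ptprc were at 0 in every library. So were Ndufs5, a complex I subunit gene, and Sco2, a complex IV assembly factor gene. Why a symbol was at 0 was not tested, and a 0 is not read here as absence. Of the alpha cell genes, Gcg, for glucagon, was at 124, 64.0 and 40.9 CPM in Paupar KD and 66.6, 70.4 and 76.2 CPM in control KD, highest in Paupar KD replicate 1. Ttr, for transthyretin, was at 753, 997 and 937 CPM in Paupar KD and 793, 779 and 724 CPM in control KD, and Irx2 at 3.23 to 3.30 CPM in Paupar KD and 3.50 to 3.79 CPM in control KD. None of these 3 genes was called, and their part in the result was not tested. The delta cell markers Sst and Hhex had too few counts to be tested.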

How the data were processed

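Total RNA of MIN6 cells (Qiagen RNeasy) was sequenced on an Illumina HiSeq2000 from TruSeq libraries, per the labels' protocols and the series' design text. The authors deposited a raw read count per gene symbol for each library, without normalization. The submitters' processing notes name CASAVA 1.8.2, HISAT2, HTSeq, DESeq2 and mouse build mm9 but no roles. Annotation, strand setting and the handling of multiply mapped reads: not given in the sources used here.

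Counts were fitted with edgeR 4.0.16 (R 4.3.3) over all 6 libraries: filterByExpr with minimum count 10 and smallest group 3 (13039 genes left), TMM scaling, robust quasi-likelihood and Benjamini-Hochberg adjustment over all tested genes at 0.05. SE is the log2 fold change over the square root of F. Levels are TMM-scaled CPM, and differences per library used log2(CPM + 0.5). Alternatives were DESeq2 1.42.0, limma-voom (limma 3.58.1), other scalings and filters, a replicate block and leaving out each library. Steps were tested on simulated counts.

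Gene positions and lengths are from GENCODE M1 on NCBIM37, the assembly called mm9, and copies from BLAST 2.17.0 with alignments of at least 40 bases. The 46 genes and the lists were chosen with earlier results of these data known. By rule, values per library are given for called genes, the 4 smallest p per complex, isoform genes, the highest and lowest level per complex, matched genes that are not subunits and the 2 smallest p of each other list. Atp5l, Atp5f1, Atp5j, Cox7b2, Nrf1, Gabpa, Ckm, Acta1, Slc2a2 and Ins1, and the means and log2 fold changes of other subunits, were added after their values were seen. Depth was 16973622 to 28693863 counts, and symbols at 0 counts have a limit of 3 counts. No batch is given in the labels.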

Additional observations from a re-analysis of the deposited data

How the results depend on the processing

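Over all genes, edgeR called 5 higher and 1 lower. Upper-quartile factors gave 3 higher and 0 lower, keeping every gene with a count 36 and 24, a minimum mean of 1 CPM 2 and 0, DESeq2 275 and 233, and an adjusted p under 0.01 gave 1 and 0. The cause of these differences was not tested. With any library left out, the counts lay between 0 and 611 higher and between 0 and 745 lower. Among the 46 genes 0 were called in either direction, except 2 higher with DESeq2, and 0 to 2 higher and 0 to 1 lower with a library left out. Leaving out a library gave 8 to 22 higher (17.4% to 47.8%) and 1 to 4 lower (2.17% to 8.70%) of the 46 genes without overlap between groups, against 15.5% to 24.5% and 16.3% to 25.3% of tested genes. With all 6 libraries the 1 lower gene without overlap was Atp5sl, and the count was 0 among genes averaging 20 CPM or more and 0 among subunits and cytochrome c.

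With a replicate block, edgeR called 1 higher and 0 lower genes and 0 of the 46. Deviations of same-numbered libraries from their group means correlated at 0.09, 0.02 and 0.02, so the numbers do not show a pairing, and of the Paupar KD libraries replicate 1 alone had its highest correlation with the same-numbered control.

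Of the 26 genes named by rule, 22 kept their sign in 15 alternatives. The log2 fold change of Atp5g2 was -0.0121 with every gene kept, -0.00794 with a minimum mean of 1 CPM, and -0.0970 to 0.184 with a library left out. Leaving out a library gave -0.0607 to 0.0682 for Sdha, -0.0410 to 0.194 for Sdhd and -0.133 to 0.00866 for Atp5s. The difference in the Atp5g1 share was 0.0596 percentage points, 0.294 from raw counts, 0.303 with median coding lengths, and -0.00705 to 0.111 with a library left out. Atp5l, Atp5g2 and Cox7a1 stayed below 3 CPM, which limits their precision.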
